A study of Mus musculus with 12 samples.

Results

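A set of 9 genes was followed because mutations in them cause or are linked to amyotrophic lateral sclerosis (ALS). They were grouped under autophagy and the clearance of damaged proteins, though not all encode parts of these routes. SOD1 is an enzyme whose mutant forms burden these routes, and VAPB is a tether of the endoplasmic reticulum. All 9 members (Sod1, Vcp, Optn, Sqstm1, Ubqln2, Tbk1, Chmp2b, Vapb and Fig4) were found by symbol, each once, among the 25965 entries of the count table. The material was lower motor neurons of the lumbar cord, taken by laser capture from 5-month-old C57BL/6 mice and sequenced as RNA. The mice were wild type (+/+), heterozygous (Q331K/+) or homozygous (Q331K/Q331K) for a knock-in of the Q331K change in TDP-43, the RNA-binding protein made from Tardbp. The mutant protein is therefore made from the gene's own locus, not from a transgene. Each genotype had 4 libraries, 12 in all, and the question for these genes was whether their RNA differs with 1 or 2 mutant copies. The labels give neither the sex nor the animal behind each library, so p-values measure the spread between libraries, which may be partly technical.

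Autophagy encloses cargo in a membrane and delivers it to the lysosome, while the proteasome degrades single ubiquitin-tagged proteins. Motor neurons do not divide, so they depend on both routes to remove misfolded protein and worn organelles over the life of the animal. Cargo receptors such as p62 (Sqstm1) and optineurin (Optn) bind ubiquitin on the cargo and LC3 on the growing membrane, and the kinase TBK1 phosphorylates them. The segregase VCP pulls ubiquitin-tagged proteins out of complexes and membranes, and ubiquilins carry them to the proteasome. CHMP2B and FIG4 act on membranes along the endosome and lysosome route, and VAPB tethers the endoplasmic reticulum to other organelles.

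Total counts per library ran from 60886825 to 83504446, and each member had 2114 to 103690 counts in each library. If every read were an independent molecule, counting error would be 2.18% for the lowest of these counts, which without molecular identifiers is a lower limit. Levels are given as CPM, a gene's share of the library total after scaling by the TMM method. Of 14 motor neuron markers 13 were in the table, all with counts in every library, and Chat, which makes acetylcholine, lay between 63.5 and 353 CPM. Among the libraries, 2 differed from the other 10, homozygote replicate 1 and heterozygote replicate 1. They held almost no interneuron RNA, and values with and without them are given below. Gene counts do not show the amino acid change itself, so the genotype labels were not checked against it.

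In no comparison between genotypes did any of the 9 genes pass the test. A gene passed when its Benjamini-Hochberg adjusted p, over all 16338 genes tested in edgeR's quasi-likelihood model, was below 0.05. Homozygotes against wild type gave 0 of 9 members called, against 0.00612% of all genes tested. Heterozygotes against wild type gave 0 of 9, against 0% of all genes, as did homozygotes against heterozygotes. The slope per mutant allele, a model that takes allele number as 0, 1 or 2, also gave 0 of 9, against 0.00612% of all genes. At an unadjusted edgeR p below 0.05 the members called were again 0 in each comparison, and the smallest unadjusted p among them was 0.174. Over all genes that share was 4.92% in homozygotes against wild type and 4.12% in heterozygotes against wild type. It was 2.99% between the mutants and 4.76% for the slope. DESeq2, run as another tool, called 0 members, and 13, 9, 3 and 11 of all genes in the same order. With shares this small, 0 of 9 says little about the members apart from other genes.

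The intervals give the sizes of change that the data leave room for. Over the 9 genes, the fold in homozygotes against wild type ran from 0.842 to 1.10, and the 95% confidence intervals together spanned 0.608 to 1.47. For homozygotes against heterozygotes the log2 differences ran from -0.18 (Optn, SE 0.18) to 0.13 (Ubqln2, SE 0.11), with intervals spanning 0.660 to 1.59 as folds. For heterozygotes against wild type the folds ran from 0.915 to 1.08, with intervals spanning 0.593 to 1.43. All 9 intervals held a log2 difference of 0 in each comparison. For no member did the ranges of any 2 genotypes separate. Over all genes they separated in 3.41% between homozygotes and wild type, in 3.24% between heterozygotes and wild type and in 2.03% between the mutants. For 9 genes, 0 is near these shares and does not set the members apart. The comparisons share libraries, so their values are not independent of each other.

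**Figure D1:**
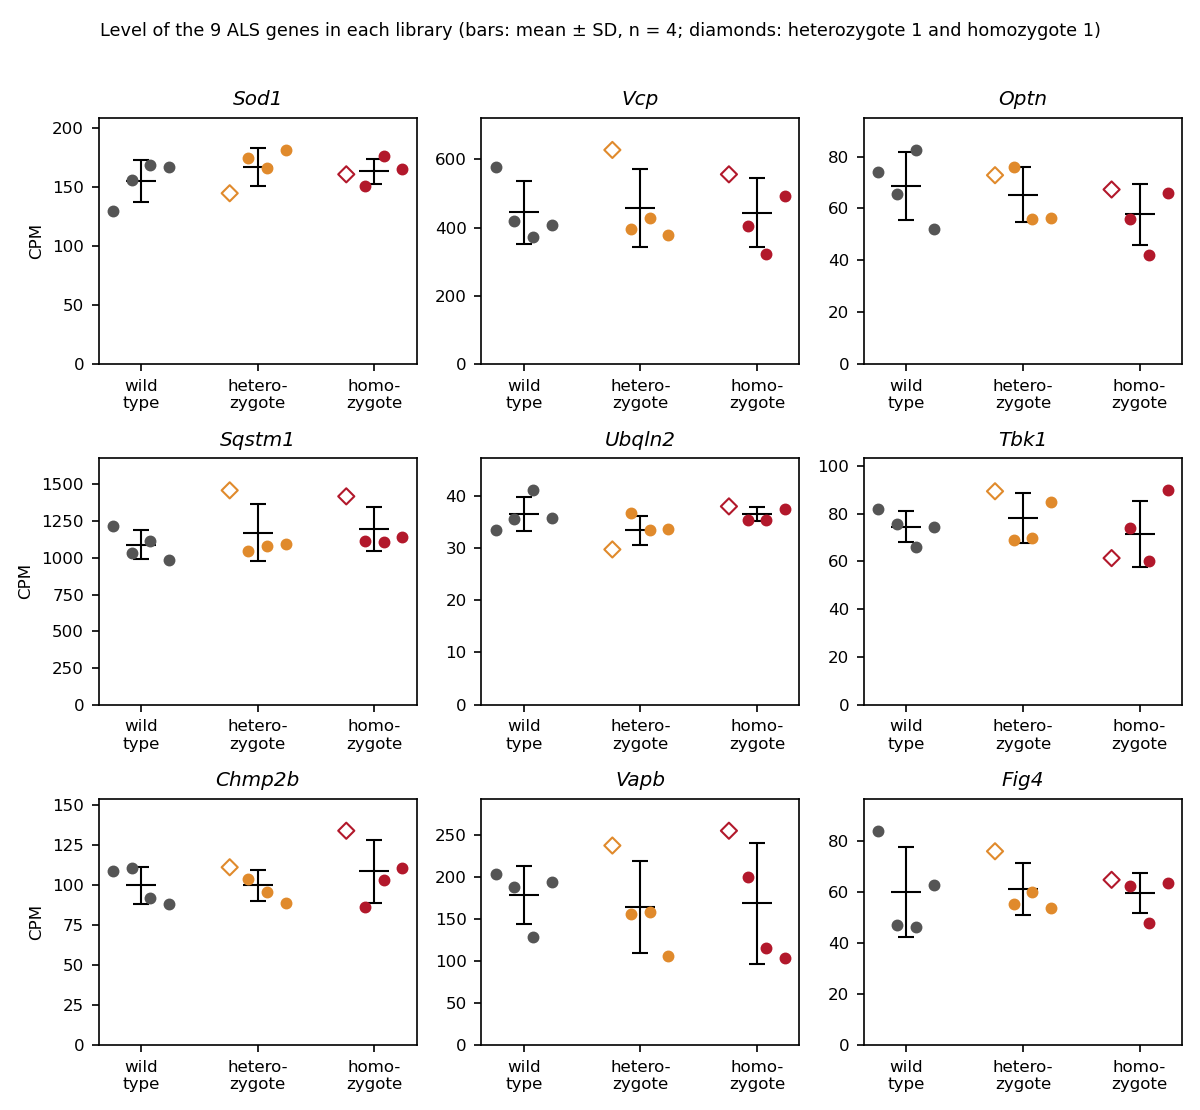
CPM of each gene (vertical axis, from 0) in the 12 libraries, grouped by genotype; points are libraries in replicate order, bars are the mean ± SD (n = 4), and open diamonds are heterozygote 1 and homozygote 1. The genotypes overlap for every gene, and the diamonds are the highest pair for Sqstm1 (1460 and 1419 CPM), Vapb (237 and 255 CPM) and Chmp2b (111 and 134 CPM).

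Among the cargo receptors, Sqstm1 was by length the most abundant of the 9 genes. Sqstm1 encodes p62, which gathers ubiquitin-tagged cargo and is itself degraded with it. Its level in wild type replicates 1 to 4 was 1214, 1034, 1118 and 988 CPM, in heterozygotes 1460, 1045, 1082 and 1092 CPM, and in homozygotes 1419, 1112, 1111 and 1145 CPM. Replicate 1 was the highest library of each genotype, and the remaining mutant libraries lay inside the wild type range. The means were 1088 ± 99.7, 1170 ± 195 and 1197 ± 149 CPM (SD, n = 4 each). The log2 difference of homozygotes from wild type was 0.14 (SE 0.12, 95% interval -0.12 to 0.39, edgeR adjusted p = 0.997), and that of heterozygotes 0.10 (SE 0.12). Without heterozygote replicate 1 and homozygote replicate 1 these differences were 0.05 (SE 0.07) and -0.02 (SE 0.07), so most of either estimate came with those libraries.

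Optn, the receptor for ubiquitin-coated mitochondria and bacteria that TBK1 phosphorylates, had the lowest estimate of the 9 genes in homozygotes. In wild type it was at 74.2, 65.7, 82.6 and 52.3 CPM, in heterozygotes at 72.8, 76.2, 56.0 and 56.3 CPM, and in homozygotes at 67.3, 56.0, 41.9 and 66.1 CPM. Homozygote replicate 3 was the lowest library of all and wild type replicate 3 the highest, and the other homozygotes lay within the wild type range. Homozygotes differed from wild type by -0.25 on the log2 scale (SE 0.18, 95% interval -0.63 to 0.14, edgeR adjusted p = 0.99) and heterozygotes by -0.07 (SE 0.18). Per mutant allele the slope was -0.12 (SE 0.09), an interval of 0.807 to 1.04 as a fold per allele. Single libraries moved these values: without homozygote replicate 3 the homozygote difference was -0.12 and the slope -0.06, and without wild type replicate 4 they were -0.35 and -0.18. Without wild type replicate 3 they were -0.14 and -0.08.

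Tbk1, the kinase that activates these receptors and also drives interferon responses, showed no such order. The 4 wild type libraries held 82.0, 75.8, 66.2 and 74.5 CPM, the heterozygotes 89.4, 68.7, 69.6 and 84.9 CPM, and the homozygotes 61.4, 74.0, 60.2 and 89.7 CPM. The 2 lowest libraries and the highest were all homozygous. The log2 difference was -0.06 (SE 0.14) in homozygotes and 0.07 (SE 0.14) in heterozygotes, each against wild type (edgeR adjusted p = 1 and 0.999).

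Vcp and Ubqln2 handle ubiquitin-tagged proteins outside the autophagosome. Vcp encodes the hexameric ATPase p97 and had 579, 419, 374 and 408 CPM in the wild type libraries. The heterozygotes had 628, 397, 429 and 379 CPM, and the homozygotes 557, 404, 323 and 494 CPM. As for Sqstm1, replicate 1 was the highest library of every genotype, and the spread within a genotype (SD 91.6 to 115 CPM) was far wider than the gap between the means of 445, 458 and 444 CPM. The log2 difference in homozygotes was -0.0015 (SE 0.20) and in heterozygotes 0.04 (SE 0.20), with an interval of 0.742 to 1.35 as a fold for the first.

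Ubqln2 encodes a ubiquilin that shuttles tagged proteins to the proteasome, and it lies on the X chromosome. It was by length the least abundant of the 9 genes, and it varied least over the libraries. The wild type libraries held 33.4, 35.7, 41.1 and 35.8 CPM, the heterozygotes 29.8, 36.7, 33.5 and 33.7 CPM, and the homozygotes 38.0, 35.4, 35.5 and 37.5 CPM. Heterozygote replicate 1 was the lowest library, and the 4 homozygotes all lay within the wild type range. Homozygotes differed from wild type by 0.0023 (SE 0.11, 95% interval -0.23 to 0.24) and heterozygotes by -0.13 (SE 0.11, 95% interval -0.36 to 0.11) on the log2 scale.

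Chmp2b, Fig4 and Vapb act on membranes. Chmp2b encodes a subunit of ESCRT-III, the complex that cuts membrane necks on endosomes and closes autophagosomes. The wild type values were 109, 111, 91.5 and 88.3 CPM, those of heterozygotes 111, 103, 95.7 and 88.7 CPM, and those of homozygotes 134, 86.4, 103 and 111 CPM. Homozygote replicate 1 alone lay clearly above the rest, and the difference of 0.12 (SE 0.13) from wild type was 0.0084 (SE 0.11) without that library and heterozygote replicate 1. Fig4 encodes a phosphatase of the complex that makes and turns over PI(3,5)P2, a lipid of late endosomes and lysosomes. Its wild type values were 84.2, 47.1, 46.4 and 62.9 CPM, followed by 76.1, 55.5, 60.3 and 53.8 CPM for the heterozygotes and 64.9, 62.4, 47.9 and 63.7 CPM for the homozygotes. Both the highest and the lowest library were wild type, and the log2 differences from wild type were -0.0098 (SE 0.19) in homozygotes and 0.03 (SE 0.19) in heterozygotes.

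Vapb encodes a protein of the endoplasmic reticulum that tethers it to mitochondria and other organelles. It varied the most of the 9 genes. Wild type held 203, 188, 128 and 195 CPM, heterozygotes 237, 156, 159 and 106 CPM, and homozygotes 255, 200, 116 and 103 CPM. The highest and the lowest library were both homozygous, and the wild type SD was 34.01 CPM, the heterozygote SD 54.4 CPM and the homozygote SD 72.04 CPM (n = 4 each). The difference in spread was not tested. The log2 difference was -0.08 (SE 0.29, 95% interval -0.72 to 0.55) in homozygotes and -0.12 (SE 0.29) in heterozygotes. Without heterozygote replicate 1 and homozygote replicate 1 both became more negative, -0.35 (SE 0.24) in homozygotes and -0.35 (SE 0.24) in heterozygotes, with edgeR adjusted p of 0.999 and 1. Of the 9 genes Vapb had the widest interval, 0.608 to 1.47 as a fold in homozygotes over all 12 libraries.

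TDP-43 binds RNA at runs of UG, and among the transcripts of the 9 genes that of Vapb had the most such sequence. Introns were not searched. The search was for TGTGTG on the transcript strand, overlaps counted, in the longest protein-coding transcript of each gene in GENCODE release M21, and 68.0% of 21877 genes held at least 1 match. Vapb held 15 in a transcript of 7029 bases, a number reached by 3.77% of genes. Fig4 had 3, Optn and Sqstm1 had 2 each, Sod1, Vcp and Tbk1 had 1 each, and Ubqln2 and Chmp2b had 0. Per kilobase, Vapb had 2.13 matches, a density reached by 7.62% of genes. The longest unbroken run in the Vapb transcript is shown because it is the longest stretch there of the repeat TDP-43 is known to bind. It lies in the 3′ untranslated part, at bases 3845 to 3853 of the transcript (gene on the plus strand of chromosome 2 in GRCm38), and capitals mark it.
Vapb: ccgagtgtgcaTGTGTGTGTttgtgtgtag
A match is a description of letters, and binding was not measured here.

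Sod1 encodes the cytosolic copper and zinc superoxide dismutase, whose mutant forms misfold and burden the clearance routes. Wild type libraries held 130, 156, 168 and 166 CPM, heterozygotes 145, 175, 166 and 181 CPM, and homozygotes 161, 151, 176 and 165 CPM. The 2 lowest libraries were wild type replicate 1 and heterozygote replicate 1, and the genotypes overlapped. Sod1 had the narrowest intervals, with a log2 difference of 0.07 (SE 0.10, 95% interval -0.14 to 0.29) in homozygotes and 0.10 (SE 0.10, 95% interval -0.11 to 0.32) in heterozygotes. As folds these spanned 0.906 to 1.22 and 0.925 to 1.25.

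**Figure D2:**
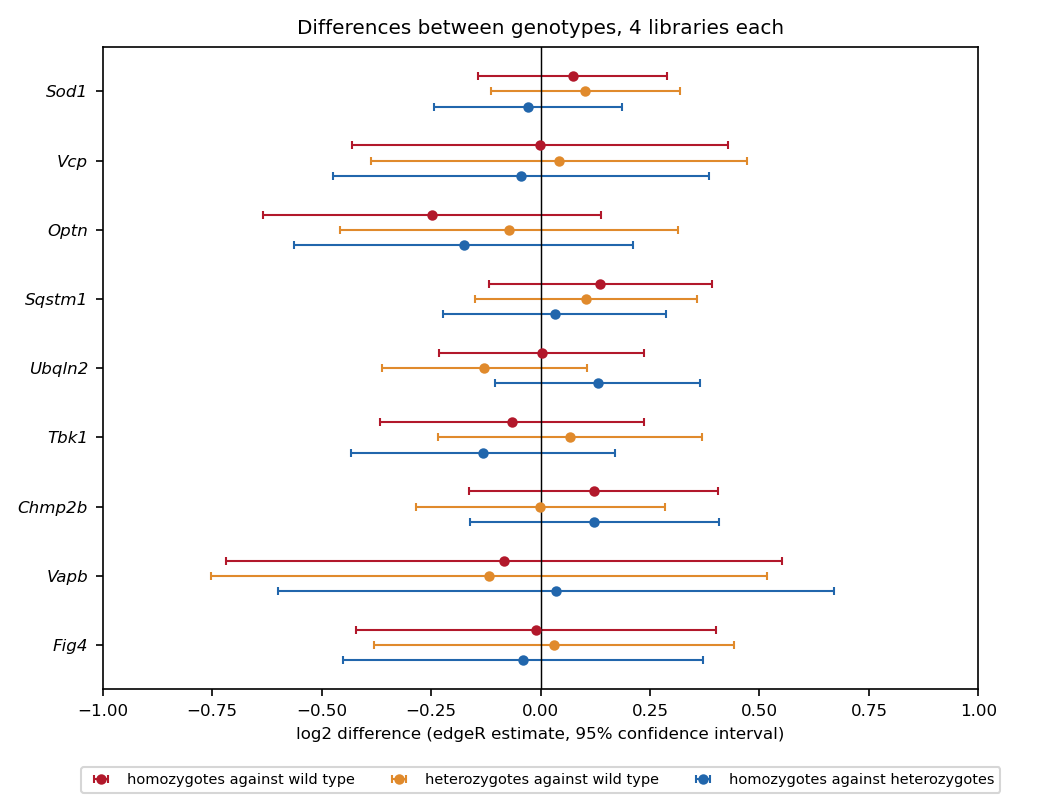
Log2 difference of each gene (horizontal axis, edgeR estimate) with its 95% confidence interval, for the 3 comparisons between genotypes. Every interval crosses 0, Sod1 and Ubqln2 have the narrowest and Vapb the widest.

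The members lie on 6 chromosomes, and their spans differ widely. In GRCm38, as the count table gives them, Sqstm1 (ENSMUSG00000015837) is at chr11:50199366-50210827 on the minus strand, Vcp (ENSMUSG00000028452) at chr4:42979963-43000507 on the minus strand and Optn (ENSMUSG00000026672) at chr2:5020642-5064051 on the minus strand. Vapb (ENSMUSG00000054455) is at chr2:173737511-173784336 on the plus strand, Tbk1 (ENSMUSG00000020115) at chr10:121546455-121586794 on the minus strand and Fig4 (ENSMUSG00000038417) at chr10:41188172-41303241 on the minus strand. Sod1 (ENSMUSG00000022982) is at chr16:90220742-90226322 on the plus strand, Chmp2b (ENSMUSG00000004843) at chr16:65539133-65562697 on the minus strand and Ubqln2 (ENSMUSG00000050148) at chrX:153498232-153501537 on the plus strand. Fig4 spans 115070 bases and has 23 exons in its longest protein-coding transcript, while Ubqln2 spans 3306 bases and has 1 exon.

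Some reads could belong to other genes. The kits keep no strand, and Vcp overlaps 1700022I11Rik, which runs the other way. That gene had 16.6% as many counts as Vcp, and a transcript of it shares 216 bases with Vcp. Optn and Sqstm1 overlap 4930551O13Rik and 3010026O09Rik, with 3.47% and 1.70% of their counts. Sqstm1 shares 583 identical bases with a transcript named Mrnip. That symbol is not among the entries of the table, which holds some genes under older symbols. Whether Mrnip is a newer symbol of the overlapping 3010026O09Rik was not checked. Ubqln2 and Ubqln1 are 80.5% identical over 344 bases. Processed pseudogenes that are not entries of the table match Vcp (Vcp-rs, 99.0% identical over 2421 bases) and Sod1 (Gm8566, 97.8% over 465 bases), and how such reads were counted is not given in the sources used here.

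Levels of different genes can be compared only per length, as CPM per kilobase of the union of a gene's annotated exons in GENCODE release M21, in which 4 of the 9 members have the same start and end as in the count table. In wild type Sqstm1 had 324 ± 29.7, Vcp 91.7 ± 18.9, Chmp2b 51.7 ± 5.96, Sod1 39.1 ± 4.48 and Vapb 25.0 ± 4.77 CPM per kilobase (SD, n = 4 each). Tbk1 followed at 19.1 ± 1.66, Fig4 at 18.3 ± 5.404, Optn at 18.3 ± 3.45 and Ubqln2 at 10.9 ± 0.973 CPM per kilobase. The wild type ranges of Vapb and Tbk1, of Tbk1 and Fig4 and of Fig4 and Optn overlapped, and those of the other neighbours in the order did not. Sod1 depends on the length used, because its union of 3970 bases includes transcripts that keep introns. By the longest protein-coding transcript of 641 bases, a length chosen after these values were seen, Sod1 was at 242 ± 27.8 CPM per kilobase, below Sqstm1 at 407 ± 37.3 and above Vcp at 134 ± 27.6. Optn, Vapb, Tbk1 and Fig4 were then at 26.3, 25.4, 24.7 and 18.3 CPM per kilobase, each overlapping the next.

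The relatives of several members were more abundant than the ALS gene itself. Ubqln1 had 55.2 ± 5.79 CPM per kilobase in wild type, 5.06 times Ubqln2, and Ubqln4 17.4 ± 1.56, 1.59 times Ubqln2. Chmp2a, the other CHMP2 subunit, had 120 ± 6.52 CPM per kilobase, 2.32 times Chmp2b, and the ATPase Vps4a, which takes ESCRT-III apart, 73.9 ± 1.29. Vapa had 80.9 ± 3.17 CPM per kilobase, 3.23 times Vapb, and the receptor Tax1bp1 31.3 ± 3.76, 1.71 times Optn (3.63 times by the coding transcript). In each of these pairs the wild type ranges did not overlap, by the exon union or by the longest protein-coding transcript.

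Other members exceeded their relatives. Sqstm1 was 27.3 times Nbr1 (11.9 ± 0.962 CPM per kilobase), a receptor of the same kind. Tbk1 was 132 times Ikbke, its closest related kinase, which had 0.145 ± 0.0752 CPM per kilobase, and 5.53 times Tank, an adaptor of both (3.45 ± 0.350). By the coding transcript these ratios were 61.4 and 3.17. Vcp was 3.90 times Ufd1 and 5.26 times Nploc4, which together form its cofactor for extracting proteins from membranes. These cofactors had 23.5 ± 1.83 and 17.4 ± 2.29 CPM per kilobase. Sod1 was 1.78 times Ccs, the chaperone that loads its copper (21.98 ± 2.47), and 1.36 times the mitochondrial Sod2 (28.8 ± 1.80). By the coding transcript Sod1 was 6.59 times Ccs and 4.92 times Sod2. For 2 of the pairs the order itself rests on the length: Vcp was 1.74 times the cofactor Nsfl1c and Fig4 2.11 times its scaffold Vac14 by the exon union, but 0.952 and 0.931 times, with overlapping ranges, by the coding transcript. Fig4 was 51.2 times Pikfyve, the kinase of its complex, which had 0.358 ± 0.189 CPM per kilobase over an exon union of 19211 bases, and 29.9 times by the coding transcript.

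**Figure D3:**
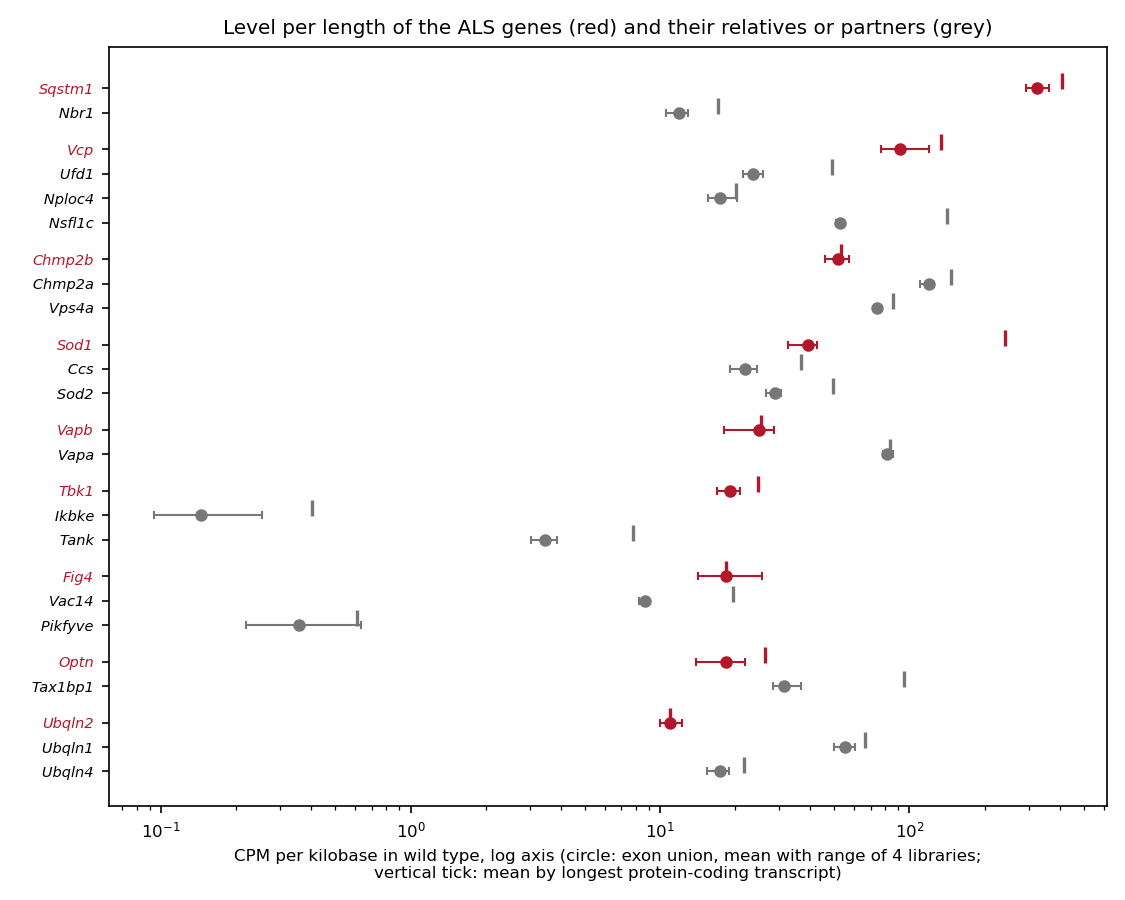
Wild type CPM per kilobase on a log axis for the 9 ALS genes (red) and the relatives or partners of each (grey); circles are means of 4 libraries by exon union with the range, and vertical ticks are means by the longest protein-coding transcript. Ubqln2, Chmp2b, Vapb and Optn lie below their relatives, Sqstm1 and Tbk1 lie above theirs, and the tick of Sod1 (242) is far from its circle (39.1).

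The wider pathways were described by 12 lists, the members themselves and the pathways around them. Of 150 genes in these lists, members included, 145 were in the table and 142 passed the filter on low counts. In edgeR 0 of the 142 were called in any of the 4 comparisons, and DESeq2 also called 0. At an unadjusted p below 0.05 there were 7 (4.93%, against 4.92% of all genes) in homozygotes against wild type, 4 (2.82% against 4.12%) in heterozygotes and 1 (0.704% against 2.99%) between the mutants. For the slope there were 8 (5.63% against 4.76%). Their median log2 difference in homozygotes was 0.0056, with 73 above 0, beside a median of -0.0032 over all genes.

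By list, homozygotes against wild type gave medians between -0.14 and 0.20 on the log2 scale. The genes of autophagosome formation had 15 of 32 above 0 (median -0.01), and the most abundant per kilobase were Gabarapl1 and Map1lc3a, LC3 family proteins, at 494 ± 11.8 and 407 ± 6.02 CPM per kilobase in wild type. Lysosome genes had 6 of 17 above 0 (median -0.05), led by the protease Ctsd (522 ± 184) and the membrane protein Lamp1 (195 ± 15.1 CPM per kilobase). Of 19 VCP cofactors 12 were above 0 (median 0.04), with Nsfl1c and Derl1 the most abundant. The autophagy receptors had 4 of 11 above 0 (median -0.05), led by Sqstm1 and Bnip3, ESCRT-III and VPS4 genes 7 of 11 (median 0.02), led by Chmp2a and Chmp5, and VAP proteins and partners 7 of 14 (median 0.01), led by Vapa and Osbpl2.

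The medians of the remaining lists lay farther from 0, except that of the first. Ubiquilins and proteasome shuttles had 3 of 6 above 0 (median -0.0036), led by Ubqln1, the PI(3,5)P2 genes 2 of 8 (median -0.14), led by the channel Mcoln1 and Fig4, and the superoxide dismutases with Ccs 1 of 4 (median -0.12), led by Sod1 and Sod2. The TBK1 complex had 7 of 8 above 0 (median 0.17), led by Tbk1 and Azi2, and the other ALS genes of transport, cytoskeleton and clearance 9 of 12 (median 0.20), led by Tuba4a and Pfn1. All medians stand beside -0.0032 over all genes, of which 49.4% were above 0.

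The members differed in how much they varied between libraries. The coefficient of variation over all 12 libraries was 29.8% for Vapb, 20.9% for Vcp, 19.0% for Fig4 and 18.3% for Optn. It was 13.5% for Tbk1, 13.3% for Chmp2b, 12.7% for Sqstm1, 8.99% for Sod1 and 7.97% for Ubqln2. Among 5257 genes with a mean CPM inside the range of the members the median was 13.0%. Vapb varied more than 93.8% of those genes, and Ubqln2 more than only 11.7%.

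Leaving out heterozygote replicate 1 and homozygote replicate 1 lowered the coefficient of variation of Sqstm1 to 5.76%, of Chmp2b to 9.84%, of Vcp to 16.8%, of Vapb to 25.8%, of Tbk1 to 12.1% and of Ubqln2 to 6.43%. It did not lower that of Optn (19.9%), Fig4 (19.3%) or Sod1 (9.11%). Relative to the mean of the other 10 libraries, the mean of these 2 was 1.58 times as high for Vapb, 1.41 times for Vcp, 1.32 times for Sqstm1, 1.24 times for Chmp2b and 1.21 times for Fig4. It was 1.12 times for Optn, 1.01 for Tbk1, 0.946 for Ubqln2 and 0.933 for Sod1. For Sqstm1 (1460 and 1419 CPM against 988 to 1214), Vapb (237 and 255 CPM against 103 to 203) and Chmp2b (111.0 and 134 CPM against 86.4 to 110.7) both libraries lay above the range of the other 10, with heterozygote replicate 1 barely above for Chmp2b. These are 3 of 9 members, where 10.3% of all genes tested lay above in both libraries, and 0 of 9 lay below in both, against 10.6% of all genes. The libraries were singled out by their marker genes, and no test was made of this pattern.

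Some cell type markers moved with these libraries, and others did not. The summed level of the 13 motor neuron markers was 50890 CPM in heterozygote replicate 1 and 51800 CPM in homozygote replicate 1, against 21200 to 34710 CPM in the others. The neurofilament genes Nefm (21720 and 22090 CPM), Nefl (15640 and 15940 CPM) and Nefh (6832 and 6946 CPM) made up most of it. Of the 13 markers 9 lay above the other 10 libraries in both, while Ret, Gfra1, Isl1 and Ache did not. Summed over 8 inhibitory interneuron markers it was 20.97 and 19.4 CPM against 197 to 472 CPM, with Gad2 and Lhx5 at 0 counts in both and Slc6a5 and Gad1 also at 0 in homozygote replicate 1. The 5 excitatory interneuron markers summed to 0.563 and 4.52 CPM against 169 to 328 CPM, with Lbx1 at 0 counts in these libraries alone. Tlx3 and Lmx1b were at 0 counts there and in several others. By genotype, the inhibitory sum ranged from 202 to 472 CPM in wild type, 20.97 to 341 in heterozygotes and 19.4 to 323 in homozygotes. Oligodendrocyte markers summed to 1209 and 1629 CPM, inside the 951 to 2852 CPM of the others, and microglia markers to 71.8 and 86.5 CPM, inside 53.04 to 106 CPM. Astrocyte markers summed to 1562 and 1677 CPM against 1635 to 2168 CPM, and endothelial markers to 10.5 and 22.8 CPM against 15.1 to 37.2 CPM. Heterozygote replicate 1 was the lowest library in each. The astrocyte sum joins markers that moved in opposite directions. Aldoc lay below the other 10 libraries in both (467 and 511 CPM against 791 to 1280). S100b (979 and 1009 CPM against 594 to 737) and Slc4a4 (20.3 and 24.8 CPM against 11.5 to 19.05) lay above in both. The rest of the 10 astrocyte markers did neither. The part of these cells in the levels of Sqstm1, Vapb, Vcp and Chmp2b was not tested. In material of many cells, fewer cells of a type and less RNA per cell cannot be told apart.

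Among the relatives, Chmp2a (162 and 163 CPM against 129 to 146) and Ubqln1 (330 and 294 CPM against 199 to 288) also lay above the other 10 libraries in both, as did Ufd1 (126 and 118 CPM against 93.1 to 114). Ccs lay below in both (24.6 and 24.8 CPM against 28.5 to 43.8). Vapa did not follow Vapb, at 269 and 318 CPM against 252 to 299.

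**Figure D4:**
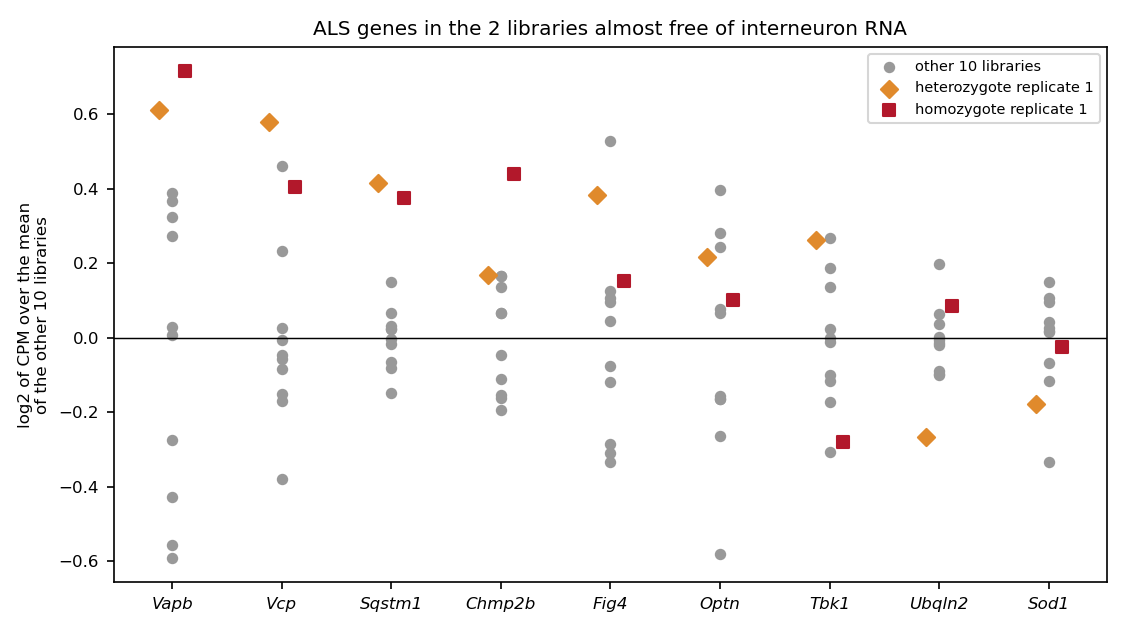
Log2 of each gene's CPM over its mean in the other 10 libraries (vertical axis), by gene in order of the mean in the 2 libraries almost free of interneuron RNA; orange diamonds are heterozygote replicate 1, red squares homozygote replicate 1, grey points the other 10. Both coloured points lie above all grey points for Vapb, Sqstm1 and Chmp2b.

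Promoters are shown for Sqstm1, Chmp2b and Vapb, the members that were high together in both libraries. The sequences are the 250 bases before the RefSeq start in GRCm38.p6, 5′ to 3′ on the gene's strand, and capitals mark GGGCGG (the GC box) on either strand. The box was found in 32.9% of 27025 promoters of this length.
Sqstm1: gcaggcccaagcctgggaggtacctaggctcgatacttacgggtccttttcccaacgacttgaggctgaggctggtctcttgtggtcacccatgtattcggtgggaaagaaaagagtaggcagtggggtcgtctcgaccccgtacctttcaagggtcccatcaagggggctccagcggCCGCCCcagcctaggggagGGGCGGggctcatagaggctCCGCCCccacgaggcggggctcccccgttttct
Chmp2b: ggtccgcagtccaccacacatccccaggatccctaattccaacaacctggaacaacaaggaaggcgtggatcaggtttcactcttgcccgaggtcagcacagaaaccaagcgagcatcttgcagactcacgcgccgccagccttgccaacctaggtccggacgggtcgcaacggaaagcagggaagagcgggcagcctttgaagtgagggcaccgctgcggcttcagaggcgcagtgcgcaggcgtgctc
Vapb: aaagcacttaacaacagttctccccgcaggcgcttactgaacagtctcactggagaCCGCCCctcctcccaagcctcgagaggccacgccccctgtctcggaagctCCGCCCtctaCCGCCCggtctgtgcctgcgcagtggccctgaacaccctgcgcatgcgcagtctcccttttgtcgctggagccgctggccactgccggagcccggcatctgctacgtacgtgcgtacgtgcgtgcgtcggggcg
They lie at chr11:50210821-50211070 (minus strand), chr16:65562763-65563012 (minus strand) and chr2:173737321-173737570 (plus strand). Sqstm1 and Vapb held 3 matches each and Chmp2b 0. Members that were not high together in both libraries also held the box, with 4 matches in Sod1, 3 in Tbk1, 2 in Fig4 and 1 in Optn, and Vcp held 0. CACGTG, the E-box within the site of the lysosomal regulator TFEB, was found in none of the 8 members with a promoter in the table, against 6.05% of all promoters. TGACNNNGC, the core of the antioxidant response element, was found on either strand in Sod1 and Vcp, with 1 match each, against 10.2% of all promoters. No match says only that these letters are not in this window.

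The members did not vary as a single set. Over 12 libraries, Pearson's r of log2 CPM was 0.84 between Vcp and Fig4 and 0.77 between Vcp and Sqstm1, but -0.74 between Sod1 and Vcp. Without heterozygote replicate 1 and homozygote replicate 1 the first was 0.83 and the second 0.48. Wild type replicate 1 showed the same contrast among the other 10 libraries, with the highest Fig4 (84.2 CPM), Vcp (579 CPM) and Vapb (203 CPM) and the lowest Sod1 (130 CPM). Its motor neuron sum of 34710 CPM was also the highest of the 10. These values describe 12 libraries made by the same protocol and read to differing depths, and no p is given.

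The genes most like each member over the 12 libraries, among 9184 others with a mean of at least 10 CPM, were close for some members and less so for others. For Sod1 they were Ndufa13 (r = 0.984), Cox6a1 (0.974) and Usmg5 (0.956), at 0.985, 0.976 and 0.954 without the libraries that stood apart. For Vcp the nearest was the overlapping 1700022I11Rik (0.990), with which it can share reads, then Rbbp7 (0.951) and Cyb561 (0.934). Cyb561 was also nearest to Fig4 (0.914), followed by Cd200 (0.912) and Gaa (0.910), the lysosomal enzyme that breaks down glycogen. For Sqstm1 the nearest were Cda (0.976), Fam171b (0.963) and Prdx1 (0.958), at 0.873, 0.840 and 0.814 without the libraries that stood apart. Chmp2b was nearest to Gyg (0.928), Gsto1 (0.908) and Bscl2 (0.907), and Vapb to Prpf19 (0.940), Rnf145 (0.937) and Dlg4 (0.908). Optn was nearest to Picalm (0.875), Orc2 (0.868) and Elp4 (0.840), and Tbk1 to Atrnl1 (0.886), Gm20536 (0.860) and Mapkap1 (0.852). Ubqln2 was nearest to Gltp (0.855), Gria1 (0.842) and Cspg5 (0.841), at 0.687, 0.718 and 0.640 without the libraries that stood apart.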

How the data were processed

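RNA was measured in 12 libraries of laser-captured lumbar motor neurons, 4 per genotype. Per the labels' protocols, extraction used the PicoPure kit, cDNA was amplified with SMART-seq v4 and tagmented with Nextera XT. These steps add no molecular identifiers and keep no strand, so duplicate reads were not independent molecules. The authors deposited unnormalized counts for each gene. Per the submitters' processing notes, Trim Galore 0.4.3 trimmed the reads and HISAT2 2.0.5 aligned them, with GRCm38 as the genome. Which program counted the reads, on which annotation and strand, is not given in the sources used here.

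Genes were kept with filterByExpr in edgeR 4.0.16 (R 4.3.3), which left 16338 of 25965 entries, all 9 members among them. They were scaled by TMM and fitted over all 12 libraries with a robust quasi-likelihood model by genotype or by allele number, tested two-sided. Log2 CPM used a prior count of 2. A chi-square test of each pair of libraries gave at least 61 per degree of freedom in 18 pairs of the same genotype and 64.5 in 48 other pairs. No column was therefore the same library sequenced again. Separate libraries of the same animal could also differ this much, so the test does not show that each came from its own animal. The steps were tested on simulated data. By rule the text names all 9 genes, relatives listed for each, the 2 most abundant genes per list and the 3 most similar genes. Some genes the rule would name are not reported here. The members and lists were chosen with earlier results of these data known. Alternatives were DESeq2 1.42.0 and its size factors, other filters, a replicate block, fewer libraries and other lengths.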

Additional observations from a re-analysis of the deposited data

Results flagged for a closer look

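A total of 3 values lay apart from the other 3 libraries of their genotype, by a gap that chance gives in about 1 of 20 groups, and 27 groups of 4 were looked at. Sqstm1 was at 1460 CPM in heterozygote replicate 1 and at 1419 CPM in homozygote replicate 1, the libraries almost free of interneuron RNA. Fig4 was at 47.9 CPM in homozygote replicate 3, below 62.4 to 64.9 CPM in the other homozygotes. Wild type replicates 2 and 3 held Fig4 at similar levels (47.1 and 46.4 CPM).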

How the results depend on the processing

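No member passed in any comparison under any alternative (18 for the slope, 19 for each other comparison), and the smallest adjusted p was 0.523, for the slope of Sqstm1 with a replicate block. The number of all genes called depended on the tool: DESeq2 called 13 in homozygotes against wild type, 9 in heterozygotes, 3 between the mutants and 11 for the slope. With a replicate block edgeR called 6 and 4 (homozygotes against wild type and slope), among them Derl1, a list gene (log2 difference 0.48, adjusted p = 0.042). Deviations of same-numbered libraries correlated above 0.1 in 3 of 12 pairs, all 3 of them the pairs of number 1 (0.106, 0.114 and 0.454). The median was 0.07 over same-numbered pairs and -0.018 over the others, and 4 of 12 libraries correlated best with their own number. The numbers were therefore not taken as pairs, and whether libraries of number 1 share a batch was not tested. Homozygotes against wild type gave 0 genes with only the 8 libraries compared, 0 without heterozygote replicate 1 and homozygote replicate 1, and 0 to 1 leaving out each library in turn. The slope then gave 0 to 2. Differences near 0 changed sign, and the cause was not tested. In homozygotes against wild type, Vcp became 0.0018 with DESeq2 and with its size factors and 0.0035 with a stricter filter, and Fig4 0.0235 with the replicate block. In heterozygotes Chmp2b became 0.0038 with DESeq2 and with its size factors. Without the 2 libraries that stood apart, homozygotes gave -0.0138 for Ubqln2 and 0.0041 for Tbk1, and heterozygotes -0.1444 for Vcp, -0.0168 for Sqstm1, -0.0004 for Tbk1 and -0.0872 for Fig4. Leaving out each library in turn, the homozygote difference ran from -0.1227 to 0.1607 for Vcp, -0.0293 to 0.0687 for Ubqln2, -0.1967 to 0.0100 for Tbk1, -0.3475 to 0.0906 for Vapb and -0.1124 to 0.2051 for Fig4. For Optn, the homozygote difference ran from -0.3514 to -0.1195 and the slope from -0.1757 to -0.0604. The heterozygote difference ran from -0.1471 to 0.1992 for Vcp, -0.1752 to 0.0336 for Optn, -0.0198 to 0.1641 for Sqstm1, -0.0030 to 0.1289 for Tbk1, -0.0555 to 0.0598 for Chmp2b, -0.3486 to 0.0514 for Vapb and -0.0893 to 0.2395 for Fig4.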
